A study of Mus musculus with 6 samples.

Results

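The *Ifit* gene cluster of mouse chromosome 19 was followed through 5 members, *Ifit1*, *Ifit2*, *Ifit3*, *Ifit3b* and *Ifit1bl1*, which were taken by gene name from a table of 29097 genes. Each name stood on 1 row of the table. All 5 had a mean FPKM (fragments scaled to gene length and sequencing depth) of at least 1 over the libraries and were among the 10440 genes tested. *Ifit1bl2*, which lies between *Ifit3b* and *Ifit1*, is not among the 5 chosen names and is given beside them.

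The libraries were made by Smart-seq2, a full-length cDNA protocol with PCR amplification, from CD45+CD11b+Ly6G+ neutrophils sorted from peripheral blood (PB) of 8-week-old male C57BL/6 mice. In the ligature-induced periodontitis (LIP) group, silk had been tied around the second molars of both jaws for 14 d, and control (Ctrl) mice stayed without ligature for the same time. The labels name no engineered allele and no other agent for either group. Each group had 3 libraries, and 5 mice were pooled for each of them, so an error describes the spread between pools. The comparison asks how the transcripts of circulating neutrophils differ while periodontitis persists.

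*Ifit* genes are interferon-stimulated genes: type I interferon binds its receptor, and a transcription factor complex with STAT2 and IRF9 then switches them on through the interferon-stimulated response element (ISRE) of their promoters. Their proteins are built of tetratricopeptide repeats. IFIT1 binds viral RNA whose cap lacks 2'-O methylation and blocks its translation, while IFIT2 and IFIT3 act as partners of other family members and can bind the translation initiation factor eIF3. *Ifit3b* and *Ifit1bl1* are mouse copies of *Ifit3* and *Ifit1*, and their own roles are less well described.

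In the GRCm38 coordinates of the deposited table, the cluster runs from *Ifit2* at chr19:34550694-34576419 (+ strand) through *Ifit3* at chr19:34583531-34588731 (+), *Ifit1bl1* at chr19:34592891-34601956 (−) and *Ifit3b* at chr19:34607970-34613401 (+) to *Ifit1* at chr19:34640871-34650009 (+), a span of 99.3 kb. *Ifit1bl2* occupies chr19:34617049-34640743 on the − strand, and its start lies 128 bases from that of *Ifit1*, so that both genes are read away from one shared stretch of DNA. No member overlapped another gene of the table. In the longest annotated transcript of *Ifit1*, *Ifit2*, *Ifit3* and *Ifit3b*, at least 99.59% of the coding bases lay in the last exon, and in *Ifit1bl1* 97.73% did.

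The promoter sequences are shown because the ISRE is the element through which interferon reaches these genes. RefSeq windows (GRCm38.p6) from 250 bases before to 50 bases after each start were searched on both strands for the ISRE core GAAANNGAAA, where N is any base, and matches within the 250 bases before a start were counted. The core occurred in 2.98% of all 32851 windows. *Ifit1*, *Ifit3* and *Ifit3b* each held 2 matches, and *Ifit1bl1* held 1 in each of its 2 RefSeq windows. The *Ifit1bl1* excerpt comes from the window nearer to the gene start given above. *Ifit2* held none in either of its RefSeq windows, which says only that these letters were not found there. The excerpts run 5′ to 3′ on each gene's own strand, with the matches in capitals, which read TTTC-first where the core lies on the opposite strand. They cover chr19:34640765-34640833 for *Ifit1* (+) and *Ifit1bl2* (−), chr19:34583353-34583436 for *Ifit3* (+), chr19:34607749-34607832 for *Ifit3b* (+) and chr19:34602043-34602092 for *Ifit1bl1* (−).
Ifit1: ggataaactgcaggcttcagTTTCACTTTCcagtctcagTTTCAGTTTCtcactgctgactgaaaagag
Ifit1bl2: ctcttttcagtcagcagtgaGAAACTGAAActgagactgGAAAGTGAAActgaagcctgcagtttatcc
Ifit3: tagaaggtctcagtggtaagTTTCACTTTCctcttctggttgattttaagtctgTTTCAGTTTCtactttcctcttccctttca
Ifit3b: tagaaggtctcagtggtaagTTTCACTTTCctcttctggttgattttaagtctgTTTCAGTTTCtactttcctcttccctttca
Ifit1bl1: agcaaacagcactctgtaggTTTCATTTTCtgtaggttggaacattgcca

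The *Ifit1* and *Ifit1bl2* excerpts are the same 69 bases read from the opposite strands, so this divergent pair shares both matches. The *Ifit3* and *Ifit3b* excerpts are identical over all 84 bases although the genes lie apart. Over their RefSeq promoter windows, *Ifit3* and *Ifit3b* were identical at 216 of 218 aligned bases (99.08%). A GAS core, TTCNNNGAA, an element of the interferon gamma pathway, was found in 7.02% of all windows, and *Ifit2* held 1 match, 241 bases before its start. A match describes letters and does not show that a factor was bound in these cells.

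The transcripts carried a likeness that bears on how far reads can be assigned. *Ifit3* and *Ifit3b* were identical at 98% of 1697 aligned transcript bases, and 18.55% of the 150-base stretches of *Ifit3* occurred unchanged in *Ifit3b*. For *Ifit1*, 1.237% of such stretches were shared, with *Ifit1bl2*, and *Ifit2* and *Ifit1bl1* shared none. The split of reads between *Ifit3* and *Ifit3b* is therefore less certain than their sum, since the counting tool's treatment of reads with several matches is not given in the sources used here.

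Read totals lay between 52186555 and 57262379 per library, and the members together took 8200 to 9213 reads in Ctrl libraries and 16753 to 19800 in LIP libraries. The libraries also differed in the genes of blood cells other than neutrophils. Higher and lower here mean in LIP by edgeR's quasi-likelihood test, at a Benjamini-Hochberg adjusted p under 0.05. Of all tested genes, 26.5% were higher and 27.2% lower. The 25 mature neutrophil genes of the list used here were all higher in LIP, and their summed FPKM was 19068 to 22779 in Ctrl and 60962 to 66218 in LIP. Over the erythroid list the sum was 180811 to 187043 in Ctrl, above that of the neutrophil genes, and 19507 to 20218 in LIP, with 10 of 10 tested genes lower. B cell genes were lower in 15 of 15 (4256 to 4596 against 603 to 667 FPKM) and T cell genes in 16 of 16 (614 to 677 against 100 to 121). Of 4 tested dendritic cell genes, 2 were higher and 1 lower, and the lower one, *Ccr7*, which other leukocytes also express, went from 778.5 to 105 CPM and carried the fall of their sum from 410 to 503 in Ctrl to 78.7 to 94.8 in LIP. Monocyte genes were higher in 12 of 13 (463 to 550 against 642 to 683) and platelet genes in 8 of 8 (791 to 1047 against 1691 to 1967). NK cell genes were higher in 4 of 8 and lower in none, with a sum of 243.5 to 292 against 248 to 272, and of 8 eosinophil and basophil genes 2 were higher and 1 lower (38.0 to 39.6 against 40.9 to 61.2). No marker of any list was at 0 in all libraries, and the part of these differences in the *Ifit* values was not tested.

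By FPKM, which allows for gene length, *Ifit3* had the highest level of the members in each of the 6 libraries. In Ctrl its FPKM was 22.7, 28.4 and 29.2, followed by *Ifit1* with 18.6, 19.2 and 20.02 and by *Ifit3b* with 13.1, 14.3 and 12.9. These 3 ranges did not overlap in Ctrl, although the *Ifit3* and *Ifit3b* levels depend on how their shared reads were divided. *Ifit1bl1* (5.17, 2.86 and 4.89) and *Ifit2* (4.04, 2.60 and 5.42) stood lower and overlapped each other. In LIP the order was the same for the first 3 genes, at 55.2 ± 6.88 for *Ifit3*, 41.9 ± 6.72 for *Ifit1* and 28.1 ± 7.59 for *Ifit3b* (SD, n = 3), but the lowest *Ifit3* value, 50.01, and the highest *Ifit1* value, 49.6, nearly met in one library. *Ifit2* (6.27 ± 1.72) and *Ifit1bl1* (5.22 ± 0.715) again overlapped.

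Of the 5 members, 4 rose in the LIP libraries, relative to the library as a whole, by edgeR's quasi-likelihood test (Benjamini-Hochberg adjusted p under 0.05), beside 26.5% of all tested genes that were higher and 53.6% called in either direction. The fitted log2 fold changes were 1.42 for *Ifit1*, 1.35 for *Ifit3*, 1.37 for *Ifit3b* and 0.95 for *Ifit2*, and *Ifit1bl1* did not pass the test. With this TMM scaling none fell, beside 27.2% of all tested genes. In the fit scaled to mature neutrophil genes none of the 5 was called higher, beside 97 of all 10440 tested genes. In that fit 2 members were lower, beside 9006 of all tested genes, with the values given after those of the single genes. Several *Ifit* genes stand in the study's heatmap of interferon response genes, which draws on these same libraries, so their direction is not independent evidence. In RNA from sorted populations, fewer cells of a type and less RNA per cell cannot be told apart.

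*Ifit1*, the cap-binding member, had 47.2, 50.2 and 51.7 CPM (TMM-normalized counts scaled to library size) in the Ctrl libraries and 122, 158 and 120.1 in the LIP libraries. Each LIP library stood far above each Ctrl library, and the Ctrl libraries lay close together. The fitted difference was a log2 fold change of 1.42 (SE 0.138, 95% interval 1.12 to 1.73, edgeR adjusted p = 1.31e-05), a 2.68-fold higher level. Of all tested genes, 92.3% had a lower log2 fold change.

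*Ifit3*, whose human counterpart stabilizes IFIT1 complexes, had 37.7, 48.8 and 49.5 CPM in Ctrl and 111, 104 and 132 CPM in LIP. Ctrl replicate 1 was the lowest library, and the groups were well apart. Its log2 fold change was 1.35 (SE 0.151, 95% interval 1.01 to 1.68, edgeR adjusted p = 3.56e-05).

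*Ifit3b* had 25.0, 28.2 and 25.2 CPM in Ctrl and 49.1, 85.0 and 67.8 CPM in LIP. The Ctrl libraries were close, while the LIP libraries spread widely, with LIP replicate 1 lowest. The log2 fold change was 1.37 (SE 0.198, 95% interval 0.93 to 1.80, edgeR adjusted p = 2.21e-04). With the reads of *Ifit3* and *Ifit3b* added together, the log2 fold change was 1.36 (edgeR adjusted p = 1.35e-05), a value that does not depend on how reads were divided between the copies.

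*Ifit2*, whose protein pairs with IFIT3 and can bind eIF3, had 15.1, 10.1 and 20.7 CPM in Ctrl and 39.1, 25.5 and 24.1 CPM in LIP. LIP replicate 1 was the highest by far, and the other LIP libraries stood only a little above Ctrl replicate 3. The log2 fold change was 0.95 (SE 0.293, 95% interval 0.30 to 1.60, edgeR adjusted p = 0.0188). The call rested on single libraries: without LIP replicate 1 the log2 fold change was 0.70 (adjusted p = 0.0657), and without Ctrl replicate 2 it was 0.74 (adjusted p = 0.0567). By FPKM the groups overlapped, with 5.42 in Ctrl replicate 3 and 5.14 in LIP replicate 3.

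*Ifit1bl1* had 11.1, 6.38 and 10.8 CPM in Ctrl and 12.04, 15.5 and 14.95 CPM in LIP. The groups did not overlap by CPM, but LIP replicate 1 was close to Ctrl replicate 1. The log2 fold change of 0.59 (SE 0.286, 95% interval -0.05 to 1.22) had an edgeR adjusted p of 0.105, and the interval holds both no difference and a rise as large as that of *Ifit2*. By FPKM its values overlapped between groups. The CPM of each of the 5 members was higher in every LIP library than in every Ctrl library, as were those of 30.3% of tested genes.

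**Figure D1:**
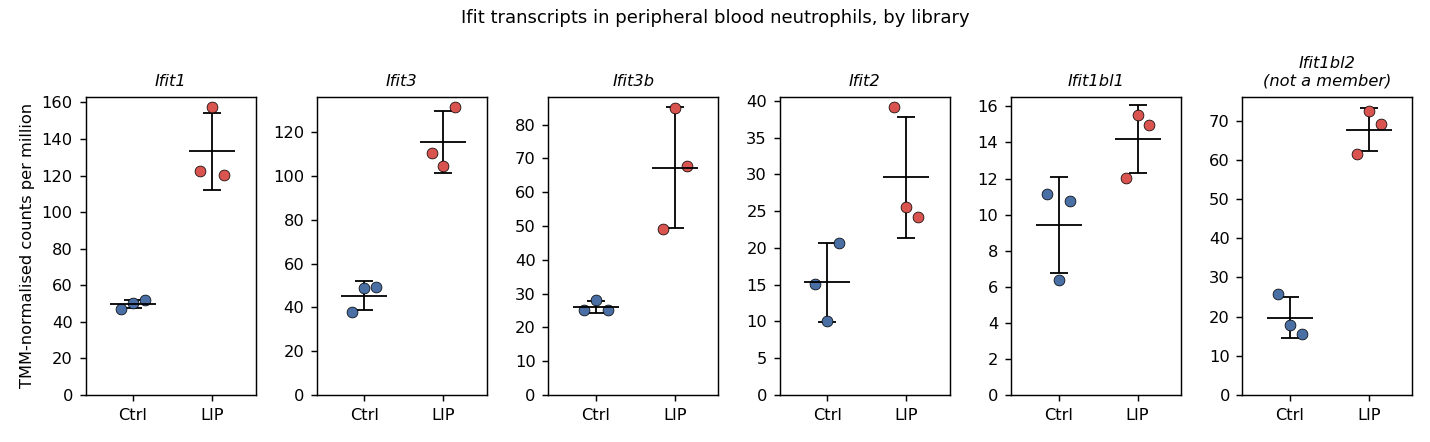
TMM-normalized CPM of the 5 members and *Ifit1bl2* in each library, with Ctrl and LIP side by side, a point for each library and bars for the group mean ± SD (n = 3), each panel on its own axis from 0. *Ifit1*, *Ifit3*, *Ifit3b* and *Ifit1bl2* show wide gaps between the groups, while *Ifit2* and *Ifit1bl1* show narrow ones.

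*Ifit1bl2* had 25.7, 17.9 and 15.7 CPM in Ctrl and 61.6, 72.4 and 69.2 CPM in LIP, with no overlap. Its log2 fold change of 1.78 (SE 0.198, 95% interval 1.34 to 2.22, edgeR adjusted p = 3.41e-05) was higher than those of 96.6% of tested genes. This interval did not overlap that of *Ifit1bl1*, the other *Ifit1*-like copy on the − strand, whose transcript was identical to that of *Ifit1bl2* at 90.48% of aligned bases. The difference between these copies was not tested itself. With the reads of *Ifit1* and *Ifit1bl2* added together, a sum chosen after the data were seen, the log2 fold change was 1.53 (edgeR adjusted p = 3.47e-06).

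The sizes of these rises were set against each other within libraries, which needs no scaling between libraries. The log2 ratio of the FPKM of *Ifit1* to that of *Ifit1bl1* was 2.21 ± 0.474 for Ctrl (SD, n = 3) and 0.79 higher for LIP (SD 0.195, n = 3), with no overlap between the groups (two-sided exact permutation p = 0.1, the smallest 3 against 3 libraries can give, and 0.667 adjusted over the 10 member pairs). It was the only one of the 10 pairs whose groups did not overlap. The ratio of *Ifit3* to *Ifit3b* was 0.98 ± 0.191 for Ctrl and 1.01 ± 0.456 for LIP on the same scale (exact permutation p = 1). This exact test could not have passed the threshold for any pair, so it does not show whether members changed equally.

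As shares of the summed member FPKM, *Ifit3* made up 39.4% ± 3.34 in Ctrl and 40.6% ± 5.69 in LIP, *Ifit1* 28.5% ± 0.825 and 30.6% ± 3.44, and *Ifit3b* 19.9% ± 1.80 and 20.3% ± 3.92 (SD, n = 3). These shares moved by less than their spread in LIP. *Ifit1bl1* held 8.12%, 4.25% and 6.75% in Ctrl and 3.56%, 3.92% and 3.95% in LIP. The *Ifit1bl1* share was lower in each LIP library than in any Ctrl library, whereas the *Ifit2* share, 5.90% ± 1.85 and 4.68% ± 1.72, overlapped. The shares were not tested, and as parts of one sum they are not independent of each other. The within-library ratios of *Ifit3* and of *Ifit3b* to *Ifit1bl1* overlapped between the groups (exact permutation p = 0.2 for each). With 3 against 3 libraries even a full separation gives an exact permutation p of 0.1.

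**Figure D2:**
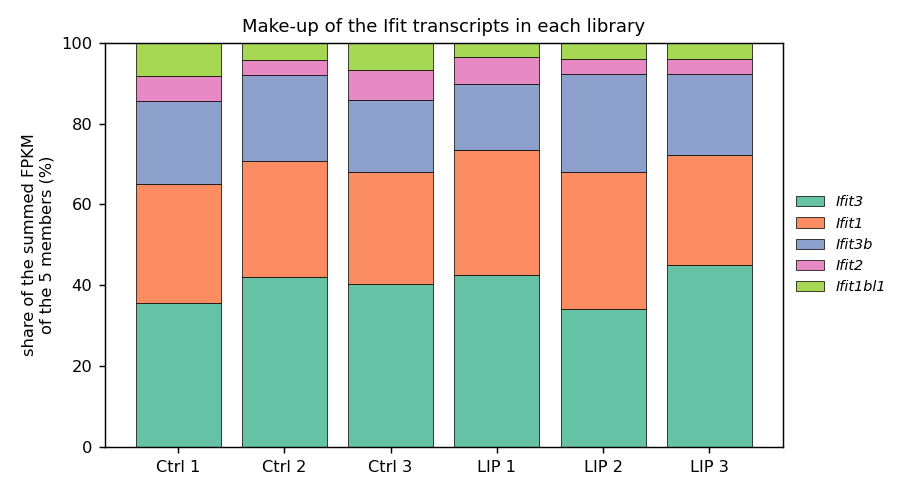
Share of the summed FPKM of the 5 members held by each member (percent) in the 3 Ctrl and 3 LIP libraries. *Ifit3* holds the largest share in each library, and the *Ifit1bl1* share lies between 3.56% and 3.95% in LIP against 4.25% to 8.12% in Ctrl. The shares were not tested.

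The direction of the member differences depended on what they were measured against. With TMM scaling the median log2 fold change of all tested genes was -0.09, and with plain library totals it was -0.42. Under library totals, *Ifit1* (1.10), *Ifit3* (1.03) and *Ifit3b* (1.05) still rose, while *Ifit2* did not pass (0.63, edgeR adjusted p = 0.0915). When the libraries were scaled to the 25 mature neutrophil genes instead, the median of all genes was -1.81, and the values of all 5 members lay below 0. In that fit *Ifit2* (-0.76, adjusted p = 0.0399) and *Ifit1bl1* (-1.13, adjusted p = 0.00500) were lower, and *Ifit1* was at -0.29 (adjusted p = 0.0594). The sum of *Ifit3* and *Ifit3b* was lower too (-0.36, adjusted p = 0.0236). A scaling shifts all genes alike, so the distance from the median of all genes hardly moves by construction, and it was 1.52 on the log2 scale for *Ifit1* and 0.68 for *Ifit1bl1*.

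The members were also set against the neutrophil genes within each library. The mean log2(FPKM + 1) of those 25 genes was 7.95 ± 0.0190 for Ctrl and 9.34 ± 0.0450 for LIP (SD, n = 3). *Ifit1* relative to this mean was at -3.60 ± 0.0303 in Ctrl and -3.93 ± 0.174 in LIP on the log2 scale, a difference of -0.33 with no overlap (two-sided exact permutation p = 0.1). For *Ifit1bl2* the difference was -0.04 (exact permutation p = 0.9), and for *Ifit1bl1* it was -1.14 (p = 0.1 by the same exact test). The difference lay below 0 for each of the 5 members, between -0.33 and -1.14. The *Ifit3* values overlapped between the groups (exact permutation p = 0.2), and an exact test of 3 against 3 libraries cannot give less than 0.1. All 25 reference genes were higher in LIP. In the edgeR fit scaled to them, the median log2 fold change of all 10440 tested genes was -1.81, and 9006 were lower. A difference below 0 is therefore not particular to the members.

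**Figure D3:**
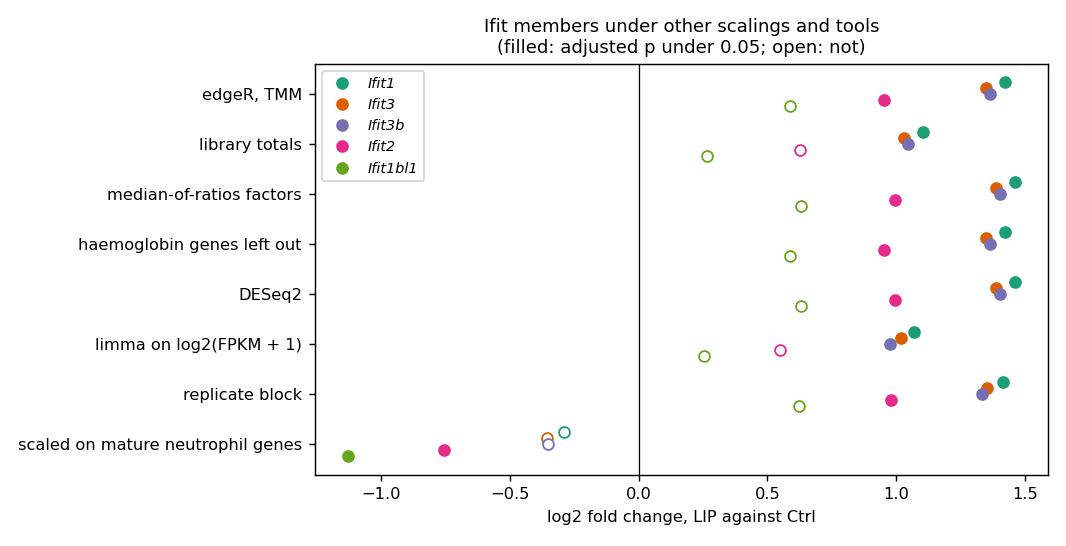
Log2 fold change of each member, LIP against Ctrl, with edgeR and TMM, under other scalings, with DESeq2, limma and the replicate block, filled where the adjusted p was under 0.05. The values of the 5 members lie above 0 in each of these fits except under scaling on mature neutrophil genes. There they lie below 0, as does the median of all tested genes (-1.81).

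Around the cluster, 24 genes other than the members were listed within 1 Mb of it and 6 were tested. Of these, 5 rose and none fell with TMM scaling, beside 26.5% and 27.2% of all tested genes. In the fit scaled to mature neutrophil genes 0 were higher and 2 lower, beside 97 and 9006 of all 10440 tested genes. *Fas*, the death receptor, stood at 47.5, 56.0 and 45.1 CPM in Ctrl and 176, 147 and 134 in LIP, with a log2 fold change of 1.62 (SE 0.144, edgeR adjusted p = 6.79e-06). *Lipa*, which encodes lysosomal acid lipase and starts at -23.2 kb relative to the start of *Ifit2*, had a log2 fold change of 0.58 (SE 0.124, adjusted p = 0.00281). *Acta2*, smooth muscle actin (1.45, adjusted p = 6.93e-05), *Ankrd22* (2.22, adjusted p = 9.13e-04) and *Ifit1bl2* were the other genes that rose. *Stambpl1*, a deubiquitinase gene, was at -0.24 (SE 0.230, adjusted p = 0.387). *Ch25h*, the interferon-inducible cholesterol 25-hydroxylase gene upstream of *Ifit2*, was not tested at a mean FPKM of 0.135.

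**Figure D4:**
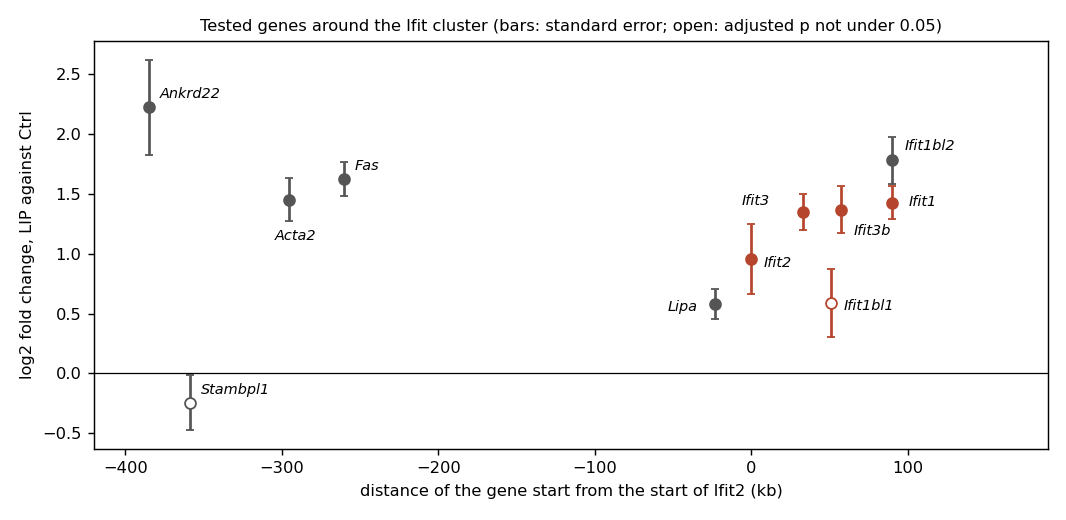
Log2 fold change, LIP against Ctrl, of the members and the 6 other tested genes, plotted against the distance of each gene start from that of *Ifit2* (kb), with bars for the standard error. Filled points passed the test (adjusted p under 0.05), and *Ifit1bl1* and *Stambpl1* are open.

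Above the *Ifit* genes in the pathway stand the interferon receptor and its signalling proteins. Of the 19 tested genes of this list, 10 rose and 2 fell with TMM scaling, beside 26.5% and 27.2% of all tested genes. The median log2 fold change was 0.50 beside -0.09 over all tested genes. With library totals 6 of the list were higher and 3 lower, beside 1919 and 4146 of all 10440 tested genes. In the fit scaled to mature neutrophil genes 0 were higher and 18 lower, beside 97 and 9006. The values of single genes that follow are with TMM scaling. Both receptor chains rose, *Ifnar1* by 0.62 (SE 0.162, edgeR adjusted p = 0.00829) and *Ifnar2* by 0.97 (SE 0.111, adjusted p = 4.09e-05). Of the factors that bind the ISRE as one complex, *Irf9* rose from 63.4 to 137 CPM (log2 fold change 1.11, edgeR adjusted p = 1.60e-05). *Stat2* was at 32.0 and 43.9 CPM (0.46, adjusted p = 0.0633), which did not pass.

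*Irf7*, the factor that amplifies interferon production, rose by 1.16 on the log2 scale (edgeR adjusted p = 3.00e-05), and *Irf1* by 1.14 (adjusted p = 1.54e-05). *Irf8*, a factor of monocyte, dendritic and B cell development, fell by 1.15 (adjusted p = 1.07e-05). Of the lists given above, B cell genes were lower, monocyte genes were higher in 12 of 13, and dendritic cell genes went both ways. The part of these lists in the *Irf8* value was not tested. *Irf2* (0.18), *Irf3* (-0.39) and *Irf5* (0.20) did not pass. Among inhibitors of the pathway, *Socs3* (1.82) and *Usp18* (1.14) rose and *Socs1* fell by 0.55, each by edgeR at an adjusted p of at most 0.0149. Of the kinases on the receptor, *Jak1* rose by 0.50 (adjusted p = 0.0192) and *Tyk2* was at 0.25 (adjusted p = 0.453).

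With TMM scaling, other antiviral interferon-stimulated genes were mostly higher as well. Of 32 tested, 22 rose and 1 fell, beside 26.5% and 27.2% of all tested genes. The median log2 fold change was 0.95 beside -0.09 over all tested genes. In the fit scaled to mature neutrophil genes 1 of the list was higher and 21 lower, beside 97 and 9006 of all 10440 tested genes. The highest were *Oas1g* (2.26) and *Oas3* (1.88), which encode sensors of double-stranded RNA. The smallest rises among those that passed were *Rsad2*, which encodes viperin (0.36, edgeR adjusted p = 0.0189), and *Adar*, the RNA-editing enzyme (0.46). *Shisa5* was the gene that fell, from 1691 to 909 CPM. The 3 RNA sensor genes of the list all rose. An ISRE core was found in 7 of the 24 list genes with a RefSeq window, beside 2.98% of all windows. The 2 shares are not on the same footing, since a gene counted if any of its windows held a match. By the same count the core was found in 3 of 16 genes of the signalling list. It was found in 1 of 19 genes of the RNA cap and eIF3 list described next.

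The IFIT proteins act on capped RNA and on eIF3, and the genes of these partners were followed as a further list. Of 25 tested, 2 rose and 13 fell, beside 26.5% and 27.2% of all tested genes, with a median log2 fold change of -0.61 beside -0.09. The 2 that rose belong to cap methylation, *Ramac*, the activator of the cap guanine methyltransferase, by 0.62 (edgeR adjusted p = 0.00284) and *Cmtr1*, the enzyme that makes the 2'-O methylation IFIT1 does not bind, by 0.53 (adjusted p = 0.00785). With library totals in place of TMM neither passed as higher. In the fit scaled to mature neutrophil genes 0 of the list were higher and 25 lower, beside 97 and 9006 of all 10440 tested genes. Of 12 eIF3 subunit genes 10 fell, with the lowest values in *Eif3i* (-1.55), *Eif3e* (-1.25) and *Eif3g* (-1.11), while *Eif3a* had the smallest fall (-0.35). *Eif3e* fell from 79.9 to 33.6 CPM (edgeR adjusted p = 6.25e-05). Of the sums given above, those of B cell, T cell, erythroid and dendritic cell genes were lower in LIP too. Those of neutrophil, monocyte and platelet genes were higher. The part of any of these lists in the fall was not tested.

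**Figure D5:**
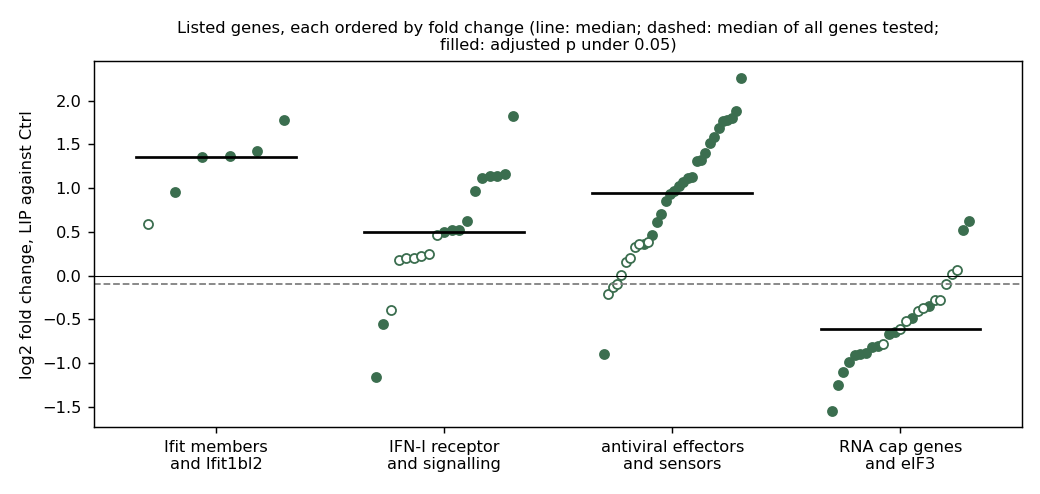
Log2 fold change, LIP against Ctrl, of the tested genes in the interferon signalling, antiviral and RNA cap and eIF3 lists, beside the *Ifit* members with *Ifit1bl2*, with a line at each median and filled points for adjusted p under 0.05. The list medians are 0.50, 0.95 and -0.61, and the median of all tested genes is -0.09.

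The genes most like each member over the 6 libraries were found by the root mean square difference of log2(FPKM + 1) centred on each gene, as a description over libraries that share group and scaling. For *Ifit1* they were *Mettl9* (0.0577), *Prokr1* (0.0706) and *Slc15a3* (0.0708), beside a median of 0.733 over all genes. The smallest of all distances lie below their median by construction. A small distance did not mean an equal edgeR log2 fold change. Beside 1.42 for *Ifit1*, *Mettl9* had 1.44, *Slc15a3* 1.70 and *Prokr1* 2.31. For *Ifit3* they were *Nrgn* (0.0241), *Gas2l1* (0.0512) and *Ssc4d* (0.0573), and those near *Ifit3b* included *Gm13453* (0.0936) and *Adam15* (0.118). Beside a log2 fold change of 1.35 for *Ifit3*, *Nrgn* had 1.35, *Gas2l1* 1.39 and *Ssc4d* 2.35. *Ifit2* lay nearest to *Gm8013* (0.0799), *Sh3tc1* (0.111) and *Cnr2* (0.124), and *Ifit1bl1* to *Hnrnph2* (0.0653), *Hk1* (0.0679) and *Daglb* (0.0703). No member was among the 3 nearest genes of another. Among themselves, *Ifit1* and *Ifit3b* were the closest pair (0.165), followed by *Ifit1* and *Ifit3* (0.226) and by the copies *Ifit3* and *Ifit3b* (0.277), while *Ifit2* and *Ifit1bl1* were 0.342 apart.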

How the data were processed

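The authors deposited 1 table with, for each of 6 libraries, unnormalized read counts and FPKM values for every gene. The submitters' processing notes name cutadapt 1.9, FastQC and GRCm38, and the aligner, the counting tool and its use of strand are not given in the sources used here. Libraries were grouped by their labels, 3 Ctrl and 3 LIP.

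Counts were tested with edgeR 4.0.16 in R 4.3.3 (TMM, quasi-likelihood test, no replicate block) on 10440 genes, those whose mean FPKM reached 1, with Benjamini-Hochberg adjustment over all of them. The standard error of a log2 fold change is its size over the square root of its F. A gene name on several rows took the row with the highest mean FPKM. TMM assumes that few genes differ, and 53.6% were called here, so scaling bears on each fold change. Smart-seq2 attaches no molecular identifiers, so reads are not independent molecules. Within-library ratios were compared by two-sided exact permutation tests. Alternatives used limma 3.58.1, DESeq2 1.42.0, other scalings, other filters and each library left out. Motifs were searched and sequences aligned with Biopython 1.88 on RefSeq promoters (GRCm38.p6) and GENCODE M21 transcripts, whose spans of the members equal the table's. The edgeR step was tested on simulated counts in which few genes differed, unlike here, so that test does not bear on the scaling.

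Members and gene lists were chosen with earlier results of these data known. Named list genes are the receptor and transcription factor genes and otherwise the 3 highest and 3 lowest among those with an adjusted p under 0.05, and the genes tested within 1 Mb and the 3 genes nearest to each member are named too. Some single genes within this rule are not reported here.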

Additional observations from a re-analysis of the deposited data

How the results depend on the processing

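*Ifit1*, *Ifit3* and *Ifit3b* passed the test under each alternative scaling, filter and tool and without any single library, except under scaling on mature neutrophil genes. There the log2 fold changes were -0.29 for *Ifit1*, -0.76 for *Ifit2*, -0.36 for *Ifit3*, -0.35 for *Ifit3b*, -1.13 for *Ifit1bl1* and -0.36 for *Ifit3* and *Ifit3b* summed (adjusted p = 0.0236), 0 members were called higher and 2 lower, and *Ifit1bl2* was at 0.06. The same scaling left 0 higher and 18 lower in the signalling list, 1 and 21 in the antiviral list, 0 and 25 in the RNA cap and eIF3 list, and 0 and 2 among the neighbours, and over all genes 97 higher and 9006 lower in place of 2766 and 2835. By its construction it lowers each gene by the rise of the reference genes. *Ifit2* was not called with library totals (0.63), without a filter (0.98) and in limma with a pseudocount of 1 (0.55) or 0.1 (0.66), for which the cause was not tested, and it ranged from 0.70 to 1.23 with 1 library left out. Library totals gave 6 signalling genes higher, 2 antiviral genes lower and 0 RNA cap and eIF3 genes higher, with 1919 higher and 4146 lower over all genes. In limma, 2 antiviral genes were lower at either pseudocount, with 1 RNA cap and eIF3 gene higher at a pseudocount of 1 and 0 at 0.1. With 1 library left out, 1 to 2 signalling genes were lower, the 1 without LIP replicate 2. A minimum mean FPKM of 5 gives no value for *Ifit1bl1*. Same-numbered libraries come from different mice, and the correlations of their deviations were 0.0212, 0.0562 and 0.0364. Those of libraries with unlike numbers lay between -0.0504 and 0.0217. With so few libraries these values cannot decide whether libraries of the same number shared a batch. With the replicate number as a block, *Ifit1* had 1.41, 2724 genes were higher and 2822 lower, and no member's call changed. The member values rest on 382 to 8042 reads per library, which are not independent molecules, and on 3 libraries per group.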
